A study of Mus musculus with 9 samples.

Results

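One day of systemic dexamethasone was compared with saline in the olfactory mucosa of the mouse, using the 3 arrays titled as the 1 day group (D1) and the 3 titled as the control group. These are 6 of the 9 arrays of the series; the other 3 come from mice treated for 2 weeks (WK2). All mice were male wild-type C57BL/6 animals aged 6 to 8 weeks. The D1 mice received dexamethasone for 1 day, the WK2 mice received it daily and intraperitoneally for 2 weeks, and the control mice received saline alone for 2 weeks. The labels state a dose of 1 mg/kg beside the 2 week group and none beside D1. D1 and control therefore differ in the drug and also in how long injections lasted, and these cannot be told apart. Each group held 9 of 27 mice, and 3 samples a group were picked for the expression of olfactory marker protein, so the level of its gene Omp is no independent finding. The labels do not say that the 3 samples of a group are separate animals, so each p-value reflects the spread between these arrays, which may be technical. The time of day at collection and the interval since the last injection were not given in the sources used here.

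Dexamethasone is a synthetic glucocorticoid. It binds the glucocorticoid receptor, which moves to the nucleus, binds DNA at paired half-sites and raises or lowers the transcription of target genes such as Fkbp5, Tsc22d3 and Per1. Glucocorticoids are also known to act on bone-forming cells and on fibroblasts that make collagen, to release neutrophils from the marrow, and to reset peripheral circadian clocks. The olfactory mucosa holds sensory neurons, their basal progenitors, supporting cells and glands, over a lamina propria of connective tissue, vessels and nerve bundles, on thin bones of the nasal skeleton.

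Each value is a 1-colour array intensity, a brightness on a linear scale, and every difference below is in log2(intensity + 50), D1 minus control, with n = 3 arrays a group. On that scale a difference of 1 is a 2-fold change, and the change of dim genes is understated. Array medians lay between 1202 and 1447. Markers of the tissue were bright on all 6 arrays, with Cnga2 of mature olfactory neurons at 107962 to 155137, Cyp2g1 of supporting cells at 373325 to 564676 and Gpx6 of Bowman glands at 356964 to 431476. Control replicate 1 and D1 replicate 3 correlated at r = 0.994 across features, above the value for every pair of arrays within 1 group (0.977 to 0.993). Control replicate 2 had the lowest of the array weights that limma estimates, 0.233, and D1 replicate 2 was high in neutrophil genes. Cartilage genes, neutrophil granule genes, Per3, Ano10, Qser1, Sgk1 and Nfil3 rest in part on control replicate 2 and are given below with and without it. In bulk tissue, fewer cells of a type and less RNA per cell cannot be told apart.

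Across 23631 features (genes, or unnamed probes), the differences after 1 day were small. The median difference was 0.03, and the middle 90% of features lay between -0.29 and 0.40, beside a median standard error of 0.20. In limma's moderated test 0 features passed a Benjamini-Hochberg adjusted p of 0.05 (0%), the lowest value being 1.0. Without adjustment 475 features (2.01%) had a p under 0.05, 280 higher and 195 lower in D1, where 1182 would be reached by chance in a table of this size. No gene named below therefore passed the test between D1 and control, and all are described by their values.

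The D1 and control values did not overlap in 2389 features (10.1%). In groups of this size, chance alone would separate about the same share of features if treatment had no effect. A lack of overlap is therefore used below to describe values and is not by itself a sign of a difference. In 1162 of the 2389 features every D1 value lay above every control value (4.92%), and in 1227 every D1 value lay below (5.19%). Higher features made up 48.6% of these, against 38.6% after quantile normalization (967 higher, 1537 lower) and 35.5% after median centring (874 higher, 1586 lower). The higher ones were more often dim and the lower ones more often bright. Among the dimmest 25% of features 322 were higher and 75 lower, whereas among the brightest 25% 180 were higher and 553 lower. Among features that also differed by more than 0.5, 213 were higher, with a median intensity of 992, and 90 were lower, with a median of 2750. These 213 and 90 were 131 and 110 after quantile normalization, 141 and 130 after median centring and 148 and 112 after cyclic loess. Of the 213, 61 had no gene symbol, against 6 of the 90.

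**Figure D1:**
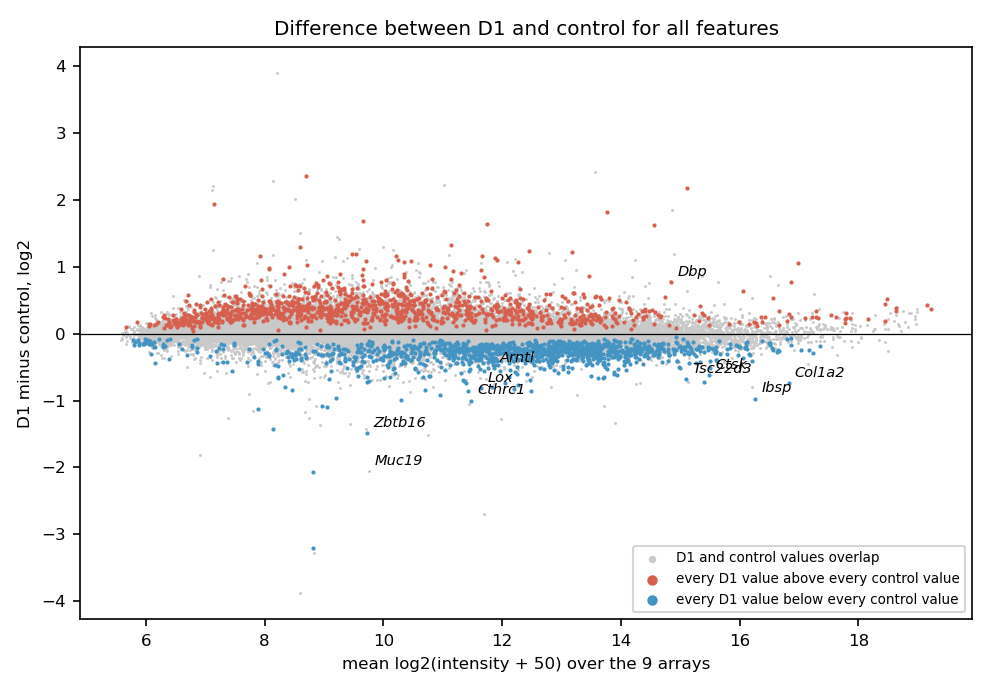
Difference between D1 and control (log2, vertical axis) against mean log2(intensity + 50) over the 9 arrays (horizontal axis), 1 point per feature. Coloured points are the 1162 features with every D1 value above control and the 1227 with every D1 value below, and a few genes described in the text are labelled; most points lie within 0.5 of 0.

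Genes of connective tissue and bone matrix were frequent among the lower features. The 4 lists of fibrillar collagen and cross-linking genes, osteoblast and bone matrix genes, osteoclast genes and cartilage genes held 100 measured genes between them, some in more than 1 list. These lists were chosen with earlier results of these data known, so the shares given here are a description and no independent support. Of the 100, 81 were below control, and 37 were below it without overlap (37%, against 5.19% of all features), while 1 was above it without overlap. Their median difference was -0.32, against 0.03 over all features. They supplied 21 of the 90 features that were lower by more than 0.5 without overlap and 0 of the 213 that were higher. Under the other 3 scalings they supplied 17 to 22 of the lower features and 0 of the higher ones. None passed the test.

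Fibrillar collagens are secreted as procollagen, trimmed and then cross-linked by lysyl oxidase into fibres. Of 41 measured genes of this list, 31 were below control, 18 of them without overlap, and the median difference was -0.27. Col1a2, a chain of type I collagen, had intensities of 136691, 135489 and 139452 on the control arrays and of 71465, 79008 and 97342 on the D1 arrays. The control values were close together, and every D1 value lay well below them. The difference was -0.74 (SE 0.17). Lox, the main cross-linking lysyl oxidase, had intensities of 4513, 3128 and 3779 in control and of 2014, 2152 and 2212 in D1. That difference was -0.81 (SE 0.16), and a second probe of Lox gave -0.90. Col5a2, of the type V collagen that starts fibrils, had intensities of 5493, 4994 and 6112 in control and of 2685, 3722 and 3340 in D1.

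The other members without overlap covered most steps of fibre assembly. They included Col5a1 (-0.55), Col12a1 (-0.52) and Col6a2 (-0.35) among collagens. Enzymes and chaperones that act on procollagen were also among them, namely Plod2 (-0.54), a lysyl hydroxylase, P4ha2 (-0.33), a prolyl hydroxylase, Pcolce (-0.41), an enhancer of procollagen cleavage, and Serpinh1 (-0.41), the collagen chaperone. The matrix glycoproteins Fn1 (-0.54), Tnc (-0.54), Thbs2 (-0.41) and Postn (-0.41) and the small proteoglycans Aspn (-0.60), Bgn (-0.32) and Ogn (-0.32) completed the group with Loxl1 (-0.27). Mfap5, a microfibril protein, was the 1 member above control without overlap (0.33). The list was not uniform, since 10 members lay above control, among them Col1a1, which encodes the partner chain of Col1a2 and differed by 0.20 with overlapping values. General fibroblast markers showed no such shift: 10 of 19 were below control, 1 without overlap, with a median of -0.03.

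Osteoblasts secrete and mineralise bone matrix, and 17 of 20 measured genes of their list were below control, 8 without overlap, with a median of -0.38. Ibsp, bone sialoprotein, had intensities of 94773, 77240 and 99628 in control and of 43623, 46433 and 47654 in D1, a difference of -0.97 (SE 0.28). The 3 D1 values were close to each other and far below the lowest control value. Cthrc1, a secreted protein of matrix-forming cells, had intensities of 2719, 2967 and 2975 in control and of 1303, 1676 and 1303 in D1, with a difference of -1.0 (SE 0.20). Ifitm5, a membrane protein restricted to osteoblasts, differed by -0.86 (SE 0.26), and Smpd3, a sphingomyelinase needed for mineralisation, by -0.79 (SE 0.21). Mepe (-0.60), of osteocytes, Tnfrsf11b (-0.56), the decoy receptor that restrains osteoclast formation, Dlx3 (-0.35) and Postn were the rest without overlap. Sp7, the osteoblast transcription factor, differed by -0.11 with overlapping values, and Bglap, osteocalcin, by -0.56, also with overlap.

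Osteoclasts dissolve bone mineral with acid and digest its collagen with cathepsin K. Of 18 measured genes 16 were below control, 6 without overlap, and the median was -0.19. Ctsk, cathepsin K, had intensities of 51937, 55757 and 54587 in control and of 35642, 32028 and 37958 in D1, a difference of -0.62 (SE 0.24). Calcr, the calcitonin receptor, was dim, at 736, 568 and 883 in control and 232, 296 and 437 in D1, and differed by -1.08 (SE 0.22). Siglec15 (-0.65), Clcn7 (-0.40), the chloride transporter of the acid compartment, Atp6v0d2 (-0.39), a proton pump subunit, and Oscar (-0.20) also did not overlap. Acp5, tartrate-resistant acid phosphatase, was near control (-0.04).

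**Figure D2:**
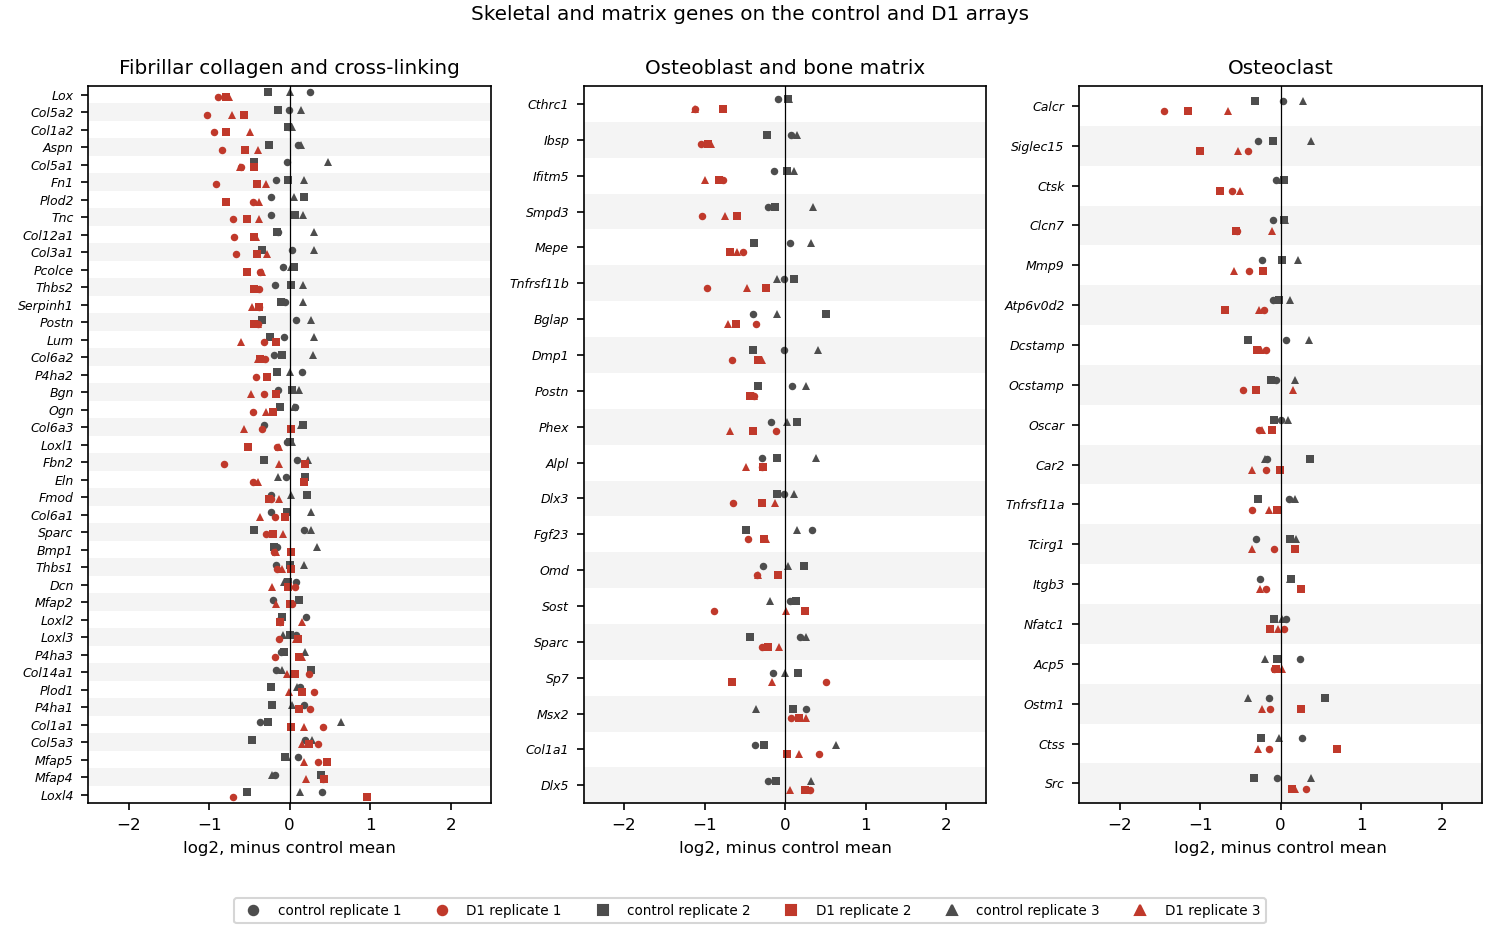
Values of every measured member of 3 lists (rows, ordered by difference) on each control and D1 array, as log2(intensity + 50) minus the mean of the 3 control arrays. At the top of each panel all 3 D1 points lie left of all 3 control points, as for Lox, Cthrc1, Ibsp, Calcr and Ctsk, while toward the bottom the groups mix.

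The medians of these 3 lists were lower on each D1 array than on each control array, and they stayed below 0 with any 1 array left out, at -0.29 or lower for osteoblast, -0.21 or lower for fibrillar collagen and -0.13 or lower for osteoclast genes. Under quantile normalization, median centring and cyclic loess, 8 to 9 of the 20 osteoblast genes and 15 to 20 of the 41 collagen genes were lower without overlap. Over all 23631 features the matching counts were 1537, 1586 and 1495, in that order. Cartilage genes behaved otherwise. Their median was -0.37, with 19 of 24 below control and 6 without overlap, but it was -0.05 without control replicate 2. That array alone carried high levels of Acan (5661, against 527 and 991 on the other control arrays), Col2a1 (12051, against 1795 and 2136) and Matn1 (2812, against 29.9 and 45.5). On the D1 arrays Col2a1 was at 1784 to 2802. Col11a1 (-0.64) and Col9a1 (-0.41) were the cartilage collagens of the smallest p. They did not overlap, and their difference kept its direction without control replicate 2. For Col10a1 the difference of -1.12 became -0.34, and for Hapln1 the difference of -0.84 became -0.31.

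The 2 week arrays differed from D1 in some of these genes. The WK2 minus control median was -0.21 for osteoblast genes, 0.16 for fibrillar collagen genes and -0.02 for osteoclast genes. Cthrc1 was at 4610, 4607 and 7446 on the WK2 arrays, above every control and D1 value. The WK2 minus D1 difference in Cthrc1 was 1.90 and passed limma's test (adjusted p 0.0178), 1 of 22 features that passed it between the treated groups (0.0931%). Cgref1, a secreted growth regulator with an EF-hand, followed the same order: it differed by -0.71 between D1 and control and by 1.40 between WK2 and D1 (limma adjusted p 0.0323). The call for Cgref1 was lost in 11 of 22 alternatives. Col1a2 was at 167905, 118540 and 135066 in WK2, around its control level, and Ibsp at 117174, 75917 and 185713. The call for Cthrc1 was lost when any 1 D1 array was left out, with adjusted p up to 0.163.

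Textbook targets of the glucocorticoid receptor were checked next, since their induction is the usual sign of the drug. Of 45 measured genes 25 were below control, and the median difference was -0.01, against 0.03 over all features. In 7 genes every D1 value lay below control (15.6%, against 5.19% of all features), and in 2 every D1 value lay above it (4.44%, against 4.92%). After quantile normalization 9 were lower (20.0%, against 6.5% of all features) and 0 higher without overlap. None passed the test.

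The members below control included classic markers of glucocorticoid exposure. Zbtb16, a transcription factor strongly induced by glucocorticoids in many cells, had intensities of 2851, 1457 and 2035 in control and of 369, 903 and 982 in D1. All 3 D1 values were below all control values, and the difference was -1.49 (SE 0.36). Tsc22d3, which encodes the anti-inflammatory protein GILZ, had intensities of 40766, 44463 and 46275 in control and of 19731, 33283 and 31310 in D1, a difference of -0.68 (SE 0.28). Fkbp5, the co-chaperone that feeds back on the receptor, had intensities of 4432, 5381 and 4535 in control and of 2717, 3572 and 3626 in D1, a difference of -0.53 (SE 0.29). Angptl4 (-0.69), an inhibitor of lipoprotein lipase, Sult1a1 (-0.63), a sulfotransferase, Pdk4 (-0.40), a kinase that slows pyruvate oxidation, and Arrdc2 (-0.20) were also lower without overlap. In WK2 the intensity of Zbtb16 was 461, 289 and 282, and that of Fkbp5 was 2587, 2491 and 1096, so both genes were again below every control value.

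On the other side were Mt1 and Pck1. Mt1, a metallothionein that binds zinc, had intensities of 311989, 338636 and 318423 in control and of 367751, 451314 and 408822 in D1, a difference of 0.34 (SE 0.14). After quantile normalization that difference was 0.07 and the values overlapped. Pck1, of gluconeogenesis, was dim, at 68.2 to 109 in control and 123 to 134 in D1. Foxo3 differed by 0.45 with 1 overlapping D1 array. Per1 (0.22, SE 0.24) and Sgk1 (0.28, SE 0.23) overlapped, and for Sgk1 the difference was -0.01 without control replicate 2. The receptor gene itself, Nr3c1, differed by -0.09 (SE 0.21), from 7296, 8895 and 8706 in control to 8460, 8595 and 6484 in D1.

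The receptor binds a paired element, which was searched on both strands as the half-site GNACA, any 3 bases and its reverse complement TGTNC, in the 250 bases before the start of each gene in RefSeq's promoter table (GRCm38.p6). The element was in 3 of the 38 list genes with an entry and in 0.387% of all 32851 promoters. List members were counted by gene and all promoters by single entries, so these are unlike measures. The stretches around the 3 matches are shown because they place the receptor's motif beside genes on this list, with the match in capitals, 5′ to 3′ along the gene.
Mt1: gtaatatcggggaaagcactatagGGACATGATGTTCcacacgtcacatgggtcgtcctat
Sgk1: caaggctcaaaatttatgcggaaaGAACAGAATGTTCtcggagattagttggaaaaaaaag
Trim63: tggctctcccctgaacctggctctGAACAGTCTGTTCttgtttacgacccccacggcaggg
The stretches lie at chr8:94178971-94179031, chr10:21993678-21993738 and chr4:134314888-134314948, each on the plus strand. The matches begin 94 bases before the start of Mt1, 188 bases before that of Sgk1 and 208 bases before that of Trim63, a ubiquitin ligase of muscle atrophy. The differences of these 3 genes were 0.34, 0.28 and 0.08. The values of Sgk1 and Trim63 overlapped between the groups, and so did those of Mt1 after quantile normalization. A match is a description of the sequence and not evidence of binding, and Fkbp5 and Tsc22d3 have no match in this window.

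**Figure D3:**
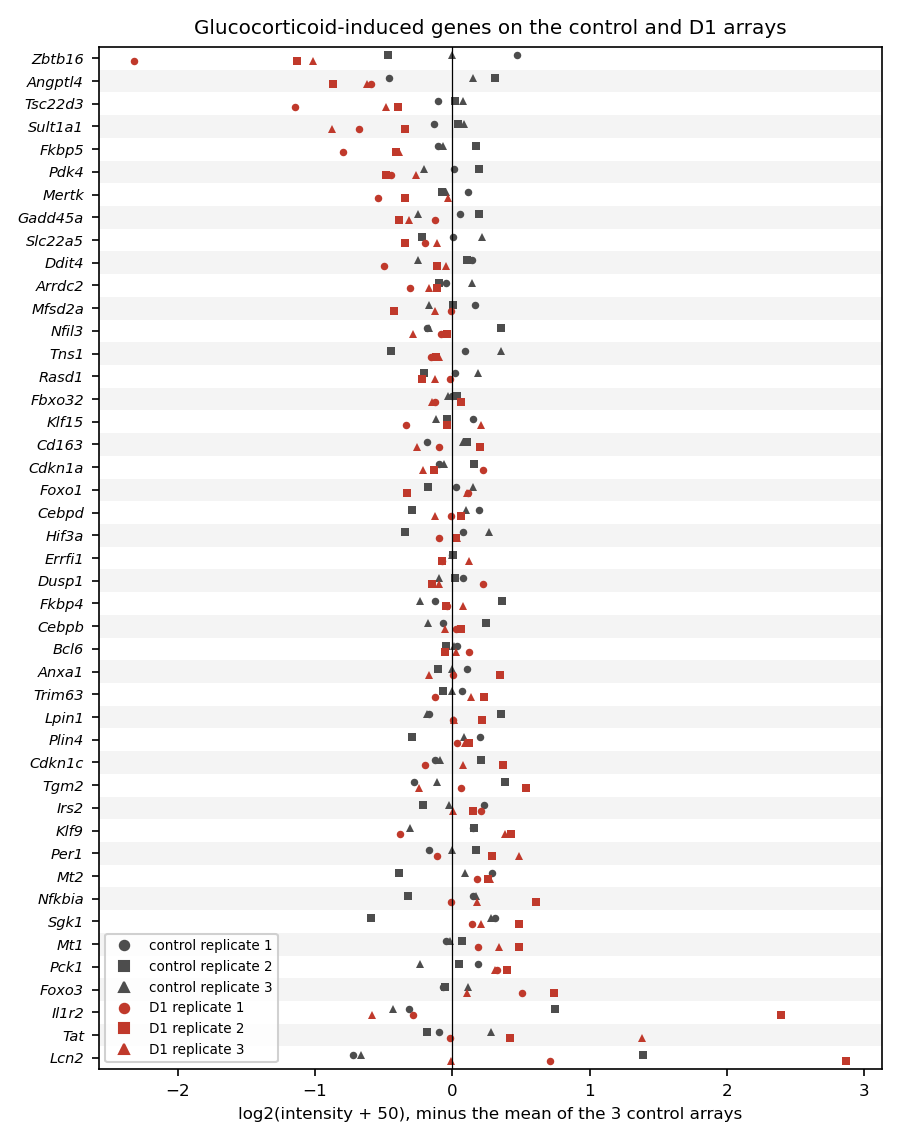
Values of the 45 measured glucocorticoid-induced genes (rows, ordered by difference) on each control and D1 array, as log2(intensity + 50) minus the control mean. Zbtb16, Tsc22d3 and Fkbp5 near the top have all D1 points left of control, and Lcn2 and Il1r2 at the bottom are spread widely within both groups.

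The circadian clock runs on a loop in which CLOCK and BMAL1 (the product of Arntl) bind E-boxes and switch on Per, Cry, Nr1d1 and output genes such as Dbp, whose products in turn close the loop. All 6 measured genes of the activator arm were below control (100%, against 43.4% of all features), with a median of -0.16. This list holds clock activators and also Nfil3, which is a repressor acting at a DNA element called the D-box. Of 14 repressors and outputs 11 were above control (78.6%, against 56.6% of all features), with a median of 0.21. These counts moved with single arrays: 2 of the 6 genes of the activator arm were above control without control replicate 1, without control replicate 3 or without D1 replicate 1. Without control replicate 2, 8 of the 14 repressors and outputs were above control, with a median of 0.11. Arntl had intensities of 3273, 3097 and 2775 in control and of 2165, 2134 and 2062 in D1, with no overlap and a difference of -0.51 (SE 0.18). Dbp, a transcription factor driven directly by the clock, had intensities of 38072, 33521 and 51268 in control and of 65964, 61278 and 81278 in D1, a difference of 0.78 (SE 0.22). Ciart, a repressor of CLOCK and BMAL1, had intensities of 657, 863 and 857 in control and of 1017, 1175 and 1304 in D1, a difference of 0.53 (SE 0.22). These were the 3 clock genes without overlap. They were 1 of the 6 genes of the activator arm, lower, and 2 of the 14 repressors and outputs, higher. Over all features 5.19% were lower and 4.92% higher without overlap.

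The remaining members overlapped between the groups. Per3 differed by 0.49, Usp2 by 0.37, Nr1d2 by 0.35 and Bhlhe40 by 0.32, while Per2 (0.01), Nr1d1 (0.00) and Tef (0.05) were at control level. Per3 was at 6278 on control replicate 2 and at 15027 and 15451 on the other control arrays, and without that array its difference was 0.06. In the activator arm Clock and Npas2 differed by -0.19 and -0.20. Nfil3 differed by -0.14, and by 0.04 without control replicate 2.

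In WK2 the lead genes lay on the other side of control. Dbp was at 9885, 7005 and 10898, and its WK2 minus D1 difference of -2.92 passed limma's test (adjusted p 0.00274), as it did in all 22 alternatives. Arntl was at 7276, 9584 and 6116, with a WK2 minus D1 difference of 1.80 (limma adjusted p 0.00955), and Ciart at 296, 462 and 246, with a difference of -1.69 (limma adjusted p 0.0275). The call for Arntl was lost without any 1 of the D1 arrays, at adjusted p up to 0.0988. The call for Ciart was lost in 10 of 21 alternatives, most of them with 1 array left out, at adjusted p up to 0.163. Since the hour of collection is not given, treatment and time of day cannot be told apart in these genes.

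E-boxes were searched as CACGTG on both strands in the same windows. The motif was in 5 of 12 repressors and outputs with an entry and in 0 of 6 genes of the activator arm. It was in 6.02% of all promoters, again counted by single entries and not by gene. The motif is shown here in 3 of these repressors and outputs, with the E-box in capitals.
Ciart: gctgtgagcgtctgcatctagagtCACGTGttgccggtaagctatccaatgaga
Per1: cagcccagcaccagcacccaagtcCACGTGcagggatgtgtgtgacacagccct
Cry1: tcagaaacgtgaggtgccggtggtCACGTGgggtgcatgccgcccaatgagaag
These stretches lie at chr3:95882315-95882368 on the minus strand, chr11:69098759-69098812 on the plus strand and chr10:85185085-85185138 on the minus strand. Ciart has 3 such matches in the window, of which the first is shown. The other genes with a match were Bhlhe41 and Tef. Ciart, Per1 and Cry1 differed by 0.53, 0.22 and -0.12 between D1 and control. The values of Per1 and Cry1 overlapped between the groups, so the signs of their differences are not read as a response.

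**Figure D4:**
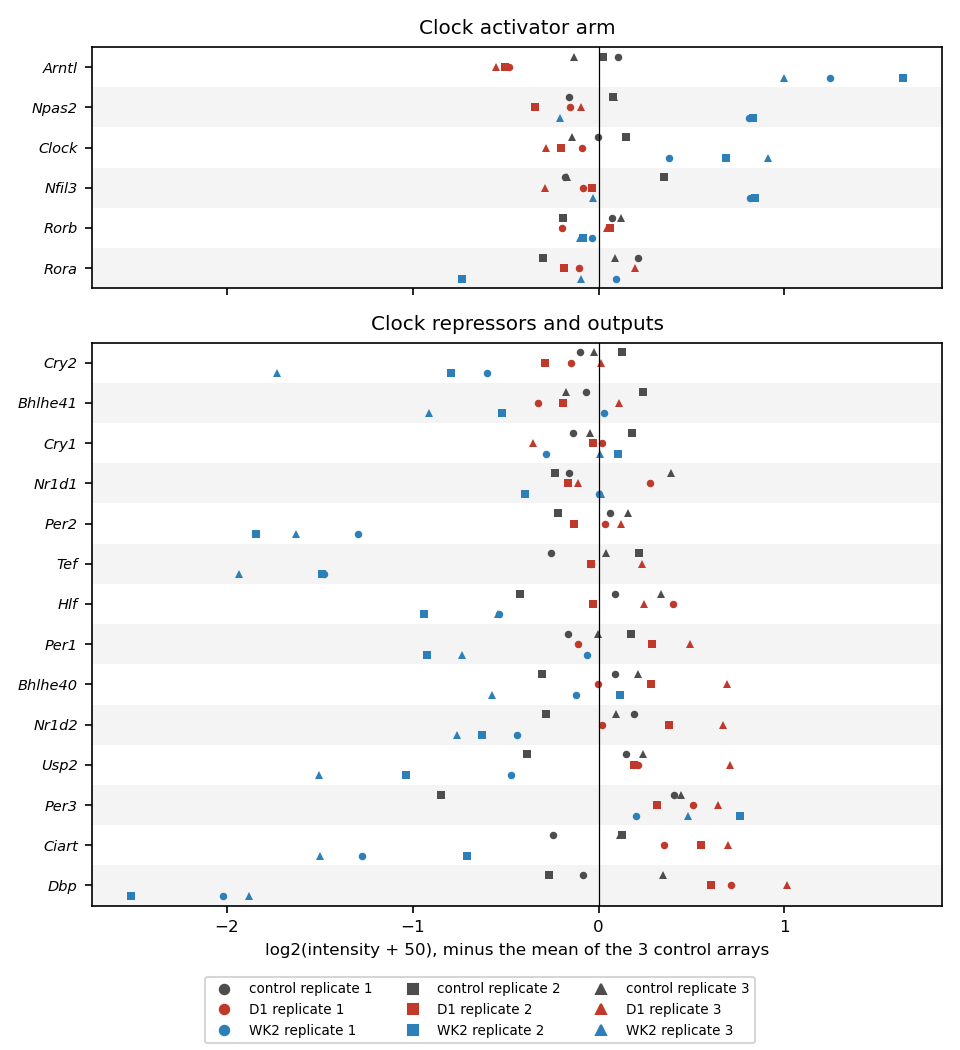
Values of the 6 genes of the activator arm and the 14 repressor and output genes of the clock on each control, D1 and WK2 array, as log2(intensity + 50) minus the control mean. For Arntl, Ciart and Dbp the D1 and WK2 points lie on opposite sides of the control points.

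Of 29 genes of mature olfactory neurons 23 were below control (79.3%, against 43.4% of all features), 6 without overlap (20.7%, against 5.19%), and the median was -0.12. After median centring 3 of the 29 were lower without overlap, beside 1586 of all 23631 features. The 6 were Cnga2 (-0.25), the channel of odour transduction, Slc24a4 (-0.22), its calcium exchanger, Rtp2 (-0.25) and Reep1 (-0.25), which help carry odorant receptors to the surface, the transcription factor Ebf2 (-0.26) and Calb2 (-0.22). The lowest value of each was on D1 replicate 2. Without that array the list's median was -0.01, with 14 genes above and 15 below control. Omp itself, on which samples were picked, had intensities of 411529, 300267 and 300586 in control and of 404390, 331835 and 490368 in D1. The 550 odorant receptors were centred near 0, with a median of -0.03 and with 24 lower (4.36%) and 19 higher (3.45%) without overlap, shares below the 5.19% and 4.92% of all features. Of 46 vomeronasal receptors 33 were above control, with a median of 0.10, and 2 were higher and 0 lower without overlap.

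Gucy1b2, a soluble guanylate cyclase of a small class of Trpc2-positive olfactory neurons, was lower by a larger margin. Its intensity was 919, 976 and 686 in control and 420, 406 and 417 in D1, a difference of -0.96 (SE 0.19). The 3 D1 values were nearly equal, and the WK2 values of 378, 569 and 384 were also below every control value. The channel Trpc2 (-0.35, SE 0.26) and Gucy2d (-0.15), a membrane guanylate cyclase, also did not overlap. Of the 10 measured genes of this list 8 were below control, with a median of -0.13.

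Other epithelial markers differed in both directions. Gap43 of immature neurons differed by -0.0045 (SE 0.13), a sign that turned under quantile normalization and cyclic loess. Mki67 of dividing cells differed by -0.11 (SE 0.20), Krt5 of horizontal basal cells by 0.31 (SE 0.20) and Cyp2g1 by 0.27 (SE 0.16), all with overlapping values. Of the other horizontal basal markers, Krt14 differed by -0.01 with overlap and Trp63 by -0.25 without overlap. The 20 measured horizontal basal genes had a median of 0.03, with 11 above and 9 below control. Kit, a marker of globose basal cells and also of mast cells, was at 3952, 4703 and 5419 in control and at 3256, 3369 and 3632 in D1, with no overlap and a difference of -0.44 (SE 0.18). Neurog1, another globose basal marker, differed by 0.38 with overlapping values. Of 20 measured globose basal genes 10 were above and 10 below control, with a median of 0.006. Cbr2 of supporting cells was at 356321, 219771 and 262281 in control and at 367032, 377070 and 440205 in D1, with no overlap and a difference of 0.52 (SE 0.19). Cyp1a2, also of supporting cells, differed by 0.03 with overlapping values. Of 24 measured supporting cell genes 11 were above and 13 below control, with a median of -0.02.

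Secreted proteins of the nasal glands were above control more often than below. Of 14 odorant-binding lipocalins and secretoglobins 12 were above, 2 without overlap (14.3%, against 4.92% of all features), with a median of 0.28 (0.08 after quantile normalization). After quantile normalization or cyclic loess 0 of the 14 were without overlap. Scgb1c1, a secretoglobin of the olfactory mucosa, had intensities of 513119, 425954 and 504319 in control and of 538422, 610690 and 723296 in D1, a difference of 0.37 (SE 0.16), which was 0.06 after quantile normalization. Single arrays dominated other members. Lcn3 was at 291015 on D1 replicate 1 and at 21608 and 11801 on the other D1 arrays, and its difference of 1.84 (SE 1.25) was 0.45 without that array. Scgb2b27 went the other way (-1.09, SE 0.74), with overlapping values.

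Antimicrobial and host defence genes of the glands had a median of 0.18, with 18 of 28 above control and 3 higher without overlap (10.7%, against 4.92% of all features). Without D1 replicate 2 that median was -0.06. Lyz1, lysozyme, had intensities of 8214, 5512 and 7212 in control and of 9767, 21426 and 9507 in D1, a difference of 0.86 (SE 0.32), or 0.48 without D1 replicate 2. Dmbt1, a scavenger glycoprotein of mucus, was at 11346, 17478 and 10342 in control and at 124336, 25742 and 18714 in D1. Its difference of 1.62 (SE 0.68) was 0.79 without D1 replicate 1. Defb2, a defensin, was dim (0.36), and Azgp1 was lower without overlap (-0.34). Muc19, a gel-forming mucin, was at 451, 5630 and 4637 in control and at 363, 660 and 581 in D1. Control replicate 1 thus resembled D1 in Muc19, and without it the difference was -3.18, which passed limma's test at an adjusted p of 0.0173. With all arrays the difference of this probe was -2.06, and the other 2 probes of Muc19 gave 0.51 and 0.05.

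Neutrophil genes had the highest list medians, but their values differed more between arrays of 1 group than between the groups. Neutrophil granule proteins are made by marrow precursors, and 18 of their 19 measured genes were above control, with a median of 0.60 and 0 without overlap. The list's median level, relative to the control mean, was -0.98, 1.10 and -0.03 on the control arrays and 0.47, 1.72 and -0.17 on the D1 arrays. Control replicate 2 was therefore above 2 of the D1 arrays, and control replicate 1 was the lowest of all 6. Without D1 replicate 2 the median difference was 0.12, without control replicate 1 it was 0.20, and without control replicate 2 it was 1.23. Ctsg, cathepsin G, shows the pattern, with 869, 4285 and 2019 in control and 4591, 8519 and 1795 in D1. Prtn3 (0.92, SE 0.56) and Ms4a3 (1.13, SE 0.57) had the same order of arrays at the top. Ltf, lactoferrin, which glands also secrete, was at 304825 on D1 replicate 2 and at 103524 to 145935 on the other 5 arrays.

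Mature neutrophil genes had a median of 0.31, with 14 of 18 above control and 0 without overlap; without D1 replicate 2 it was -0.07. S100a9, a calcium-binding protein of neutrophils, was at 36088, 143987 and 69619 in control and at 108549, 222582 and 68077 in D1. Mmp25 (0.30) and Itgam (0.47) were also above control, and Itgam was at -0.01 without D1 replicate 2. Mmp9, which neutrophils and osteoclasts both make, was below control at -0.39 (SE 0.23). Erythroid genes had a median of 0.17, with 15 of 20 above control and 0 without overlap, and it was -0.08 without control replicate 1, 0.48 without control replicate 2 and 0.40 without D1 replicate 3. The summed intensity of the erythroid list was 204000, 364000 and 224000 in control and 323000, 384000 and 196000 in D1. The erythroid genes of the smallest p were Aqp1 (0.26), Kel (0.28), Tspo2 (0.42) and Car1 (0.48), all with overlap. How much of the spread in these lists comes from blood or marrow carried in with the tissue was not tested.

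**Figure D5:**
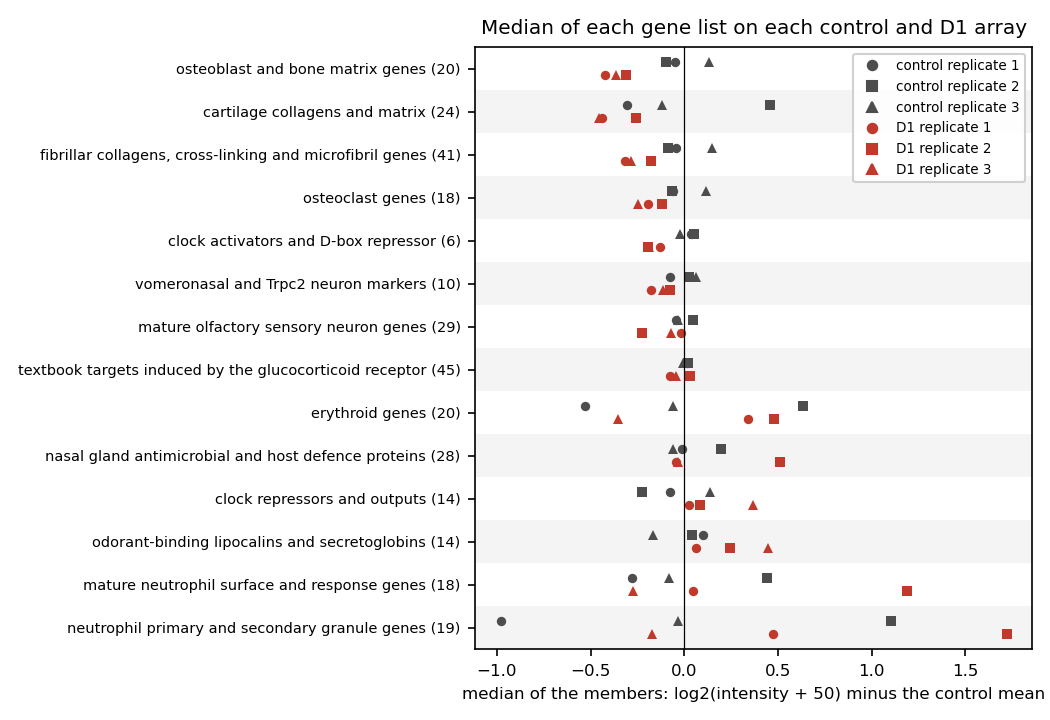
Median, over the measured members of each of 14 gene lists (number in brackets), of log2(intensity + 50) minus the control mean, on each control and D1 array. D1 and control points separate for osteoblast, fibrillar collagen and osteoclast genes, whereas neutrophil and erythroid genes spread within both groups and cartilage genes are high on control replicate 2 alone.

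Among brighter features, those above the median of all, several genes outside these lists differed without overlap. Cd109, a co-receptor that restrains TGF-beta signalling, was at 3255, 3191 and 3752 in control and at 1685, 1901 and 1987 in D1, a difference of -0.85 (SE 0.16), and a second probe gave -0.77. Slc13a5, a citrate transporter also used by osteoblasts, was at 2327, 2593 and 3741 in control and at 1337, 1611 and 1498 in D1 (-0.91, SE 0.21). Tmem267 (-0.85), Arhgap24 (-0.59), a GTPase-activating protein for Rac, and Zbed3 (-0.58), which binds axin, were also lower. The smallest unadjusted p of all features, 7.61e-05, belonged to Prss35, a secreted serine protease-like protein. Prss35 was dim, at 577, 602 and 711 in control and 223, 269 and 316 in D1, a difference of -1.10 (SE 0.17), and its limma adjusted p was 1.0. In WK2 the intensity of Prss35 was 678, 549 and 741, around its control level.

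On the higher side, Tbc1d10a, a GTPase-activating protein for Rab proteins, was at 1897, 1561 and 1866 in control and at 3120, 3042 and 2752 in D1. Its difference of 0.73 had an SE of 0.16. Atp6v0a4, a proton pump subunit, was at 3056, 2724 and 1872 in control and at 5494, 3829 and 4474 in D1 (0.85, SE 0.24). Eml2 (0.95), a microtubule-binding protein, St3gal4 (0.54), a sialyltransferase, and Spint1 (0.55), a membrane inhibitor of serine proteases, were higher as well. So were Mtfp1 (0.53), of mitochondrial fission, Lss (0.46), lanosterol synthase of the cholesterol pathway, Mindy4 (0.41), Fam166b (0.39) and Cdk14 (0.38). Qser1 (1.16, SE 0.37) was at 1090 on control replicate 2, and its difference was 0.77 without that array.

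The largest non-overlapping differences often rested on 1 array. Ano10 differed by 1.64 because it was at 138 on control replicate 2 and at 4611 and 4618 on the other control arrays, and without that array the difference was 0.10. Mdfi was at 3935 on D1 replicate 3 and at 556 and 557 on the other D1 arrays, and its difference of 1.20 was 0.29 without that array, while a second probe gave 0.31. Car6, a secreted carbonic anhydrase, was at 6508 on D1 replicate 3 (1.10, and 0.43 without it), and Mefv at 3660 on D1 replicate 1 (1.69, and 0.90 without it, with 0.21 and 0.27 from its other 2 probes). The Top2b probe read near 0 on 5 of the 6 arrays and 32452 on control replicate 1, so it gives no usable difference. Zfp647 was at 908 to 1063 in control and at 91.4, 827 and 76.4 in D1. Cyp20a1 (1.29, SE 0.55) and Nkx3-2 (1.08, SE 0.37), a transcription factor of chondrocyte precursors, were dim. For Nkx3-2 a second probe gave 0.17, and the difference was 0.66 without control replicate 3 and 0.79 with a pseudocount of 500.

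The other 36 gene lists had medians from -0.10 to 0.12, and no gene in any of the 50 lists passed the test. The lowest of them, basement membrane genes, had 24 of 29 below control, 3 without overlap (10.3%, against 5.19% of all features). Class II antigen presentation genes had 9 of 13 below control and 0 without overlap. Proliferation genes had a median of -0.06, oxidative phosphorylation genes 0.01 and cytosolic ribosomal protein genes 0.02. Inflammatory cytokines and chemokines, whose repression is a known effect of glucocorticoids, had 27 of 50 above control and a median of 0.02.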

How the data were processed

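Total RNA was extracted with Trizol (RNA integrity number of at least 7), amplified and labelled with Cy5, per the labels' protocols. The authors deposited 1 table of intensity values for 26423 probes on 9 arrays; 8 to 18 probes an array are below 0, and the sources used here do not give the scanner, software or scaling. Since array medians lay within 0.5 on the log2 scale, the intensity values were used as deposited. Probes were named through the platform annotation, updated by gene ID through RefSeq (GRCm38.p6): 21876 had 1 symbol, 0 several and 4547 none. The brightest probe stood for each of 19084 genes, which left 23631 features. A model with 1 mean per group was fitted to log2(intensity + 50) of the 9 arrays in R 4.3.3 using lmFit, contrasts.fit and eBayes of limma 3.58.1, with Benjamini-Hochberg adjustment over all features. The test was tried on simulated data. The rule named, among genes without overlap, the 12 of smallest p in each direction above the median intensity and the 8 largest differences in each direction, then up to 4 of smallest p from each of the 14 lists described, and a set of textbook genes. Immune receptor segments, predicted genes and chemoreceptors were not eligible. Other list members, marker genes and the sequences shown were picked with their values in view. The genes, lists and rules were chosen with earlier results of these data known. The alternatives were other scalings, filters, pseudocounts, probe summaries and fits, and leaving out each array.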

Additional observations from a re-analysis of the deposited data

Results flagged for a closer look

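The WK2 minus D1 difference, in which the control cancels, passed limma's test (adjusted p under 0.05) for 10 genes that belong to a list or are named above. Dbp differed by -2.92, Arntl by 1.80, Ciart by -1.69 and Cthrc1 by 1.90. Cgref1 differed by 1.40. In these 5 genes the D1 and control values did not overlap. The clock genes Tef (-1.68) and Per2 (-1.60) were at control level in D1, with D1 minus control differences of 0.05 and 0.01, and below it in WK2. Apcdd1, an inhibitor of Wnt signalling, differed by -1.32 between WK2 and D1 and by -0.27 between D1 and control. Ccl20, a chemokine of epithelia, differed by 2.93 between WK2 and D1 and by -0.51 between D1 and control. Muc15, a membrane mucin, differed by 1.90 and by -0.39. Dbp passed in all 22 alternatives, Arntl and Muc15 each lost the call in 3, Cthrc1 in 4, Per2 in 6 and Tef in 7. The others lost it in 10 or 11, mostly when 1 array was left out. Groups of 3 arrays are too small for a check of single outlying values.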

How the results depend on the processing

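Leaving out each array in turn gave 0 to 1 features past the test between D1 and control: Muc19 passed without control replicate 1 and Qrich2 without control replicate 3. The other alternatives, array weights and an adjusted p under 0.1 among them, gave 0. The count at an unadjusted p under 0.05 (475) was 208 without the dimmest 50% of features, 752 in a fit of the 6 arrays, 1702 with array weights and 297 to 742 with 1 array left out. The count without overlap (2389) was 1392 without the dimmest 50% of features, a set of fewer features, and 2389 to 5662 with 1 array left out, where fewer values can overlap. Between WK2 and D1 the count (22) was 75 after quantile normalization, 50 after median centring, 53 after cyclic loess, 37 without the dimmest 25% of features, 13 with a pseudocount of 500, 134 with array weights and 1 to 27 with 1 array left out.

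Deviations of same-numbered arrays correlated at -0.28 to 0.13, which cannot show whether such arrays share a batch or a day. With the replicate block 0 features passed between D1 and control and 8 between WK2 and D1. An alternative added after the data were seen left out control replicate 2 and WK2 replicate 3 together. It gave 1101 features at an unadjusted p under 0.05, 5662 without overlap and 2 between WK2 and D1, a cartilage median of -0.048, Nfil3 at 0.040 and Sgk1 at -0.013.

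List medians moved beyond their spread between arrays in these cases. Osteoclast genes were at -0.076 without the dimmest 50% of features, odorant-binding genes at 0.081 after quantile normalization, glucocorticoid-induced genes at -0.061 after median centring, and the clock activator arm at -0.22 after median centring and -0.12 with array weights. With 1 array left out, cartilage genes ranged from -0.49 to -0.048, Trpc2 neuron genes from -0.21 to -0.13 and mature neuron genes from -0.15 to -0.0062. Gland genes then ranged from -0.064 to 0.25, glucocorticoid-induced genes from -0.058 to 0.029 and the clock activator arm from -0.21 to -0.14. The cause was not tested. Clock repressors and outputs ranged from 0.11 to 0.30 with 1 array left out, which was not beyond their spread. Of 92 named genes, 86 kept their direction in all 23 alternatives. The 6 others each reversed with 1 array left out. They were Itgam (lowest -0.0091, highest 0.81), Nfil3 (-0.23 to 0.040), Sgk1 (-0.013 to 0.44), Nr3c1 (-0.18 to 0.044), Mki67 (-0.20 to 0.0084) and Gap43. Gap43 was at 0.031 after quantile normalization, 0.019 after cyclic loess and -0.046 to 0.073 with 1 array left out. The table gives no detection calls, so dim genes such as Calcr and Prss35 cannot be set against background.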

Other observations

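Beside the 4.92% of all features that were higher and the 5.19% that were lower without overlap, further lists had these values. Immediate early genes, which respond to cell activity and stress, had 4 of 34 members higher (11.8%) and 4 lower (11.8%) without overlap. Genes of cholesterol synthesis had 3 of 19 higher (15.8%) and 1 lower (5.26%) without overlap, with a median of 0.08, and Wnt feedback genes had 2 of 22 higher (9.09%) and 4 lower (18.2%), with a median of -0.01. Motile cilia genes had a median of 0.00 and endothelial genes of 0.04. Cd79a, part of the B cell receptor, was at 2837, 2175 and 2687 in control and at 3607, 3633 and 3581 in D1 without overlap, while its partner Cd79b was at 3935, 9322 and 3821 in control and at 4197, 4943 and 2936 in D1.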
